A study of Mus musculus with 6 samples.

Results

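The Tigger elements and the other members of the TcMar group of DNA transposons were followed in RNA of mouse embryonic fibroblasts with and without β-actin. Members were all rows of the class DNA with a family name starting with TcMar, apart from those whose own name starts with UCON or Eulor, which left 69 of 1336 rows. Each row is a repeat subfamily, and its value is the sum of reads over all copies in the genome. Of the 69 members 48 belonged to TcMar-Tigger, 8 to TcMar-Tc2, 4 to TcMar-Tc1, 3 to TcMar-Mariner and 1 to TcMar-Pogo, 4 were placed in TcMar with no further division, and 1 carried the uncertain family name TcMar?. Enough counts for a test were present in 65 members.

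The study compared wild-type cells (WT, 3 libraries) with Actb-/- cells (KO, 3 libraries). Actb encodes β-actin, a protein of the cytoskeleton and the nucleus. All 6 cultures were fibroblasts of the BALB/c strain from embryos of 10.5 days, and the series calls the 3 libraries of a genotype biological replicates. The labels do not say whether these came from separate embryos, a clone or a pool, so the p-values measure the spread between these libraries. Protein-coding genes are not among the rows, and the loss of Actb RNA and the fibroblast identity were not analysed here.

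TcMar elements are cut-and-paste transposons. An autonomous copy encodes a transposase that binds the inverted repeats at the ends of the element, excises it and inserts it at a TA dinucleotide, whereas short non-autonomous copies carry the ends alone and depended on a transposase made elsewhere. The Tigger elements are relatives of the pogo transposon of flies, and host genes such as Cenpb, Jrk and the Tigd genes descend from pogo-like transposases. In the mouse these elements are regarded as fossils that no longer move. Their copies lie scattered in introns, untranslated regions and intergenic DNA, and a count cannot tell transcription that starts in an element from a longer transcript that runs through it.

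The members received a small part of the repeat counts. Values by library are given in the order of replicates 1 to 3. The members received 32123, 11244 and 20521 counts in the WT libraries and 11606, 26882 and 19074 counts in the KO libraries. Library totals ran from 7708630 to 19288620, of which ribosomal RNA (rRNA) filled 32.4% to 84.8%. Of the counts outside structural RNA the WT libraries gave 0.623% ± 0.165 (SD, n = 3) to the members and the KO libraries 0.595% ± 0.155. Which mean was higher turned on single libraries: KO was higher by 0.0536 percentage points without WT replicate 1 and by 0.0445 without KO replicate 1. The 6 shares fell in the order of rising rRNA: 0.786% (WT replicate 1), 0.758% (KO replicate 2), 0.627% (WT replicate 3), 0.576% (KO replicate 3), 0.456% (WT replicate 2) and 0.450% (KO replicate 1). The widest exact (Clopper-Pearson) 95% interval of these shares was 0.749% to 0.767%, in KO replicate 2, and covers counting error only. The genotypes alternated in that order, and the part of rRNA in it was not tested.

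Levels are given as normalized CPM, counts scaled to an effective library size that edgeR's TMM method chooses so that the bulk of rows is level between libraries. On that scale the summed TcMar level did not fall as rRNA rose. The WT libraries held 1333, 1462 and 1428 and the KO libraries 1422, 1335 and 1287 normalized CPM, so the genotypes overlapped. Within WT the sum rose with the rRNA share. Within KO it was highest in the library highest in rRNA and lowest in the library of middle rRNA share. Fewer cells of a kind and less RNA per cell cannot be told apart in such bulk samples. Because the counts are sums over copies and no row length is given, levels are compared between libraries and not between subfamilies.

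**Figure D1:**
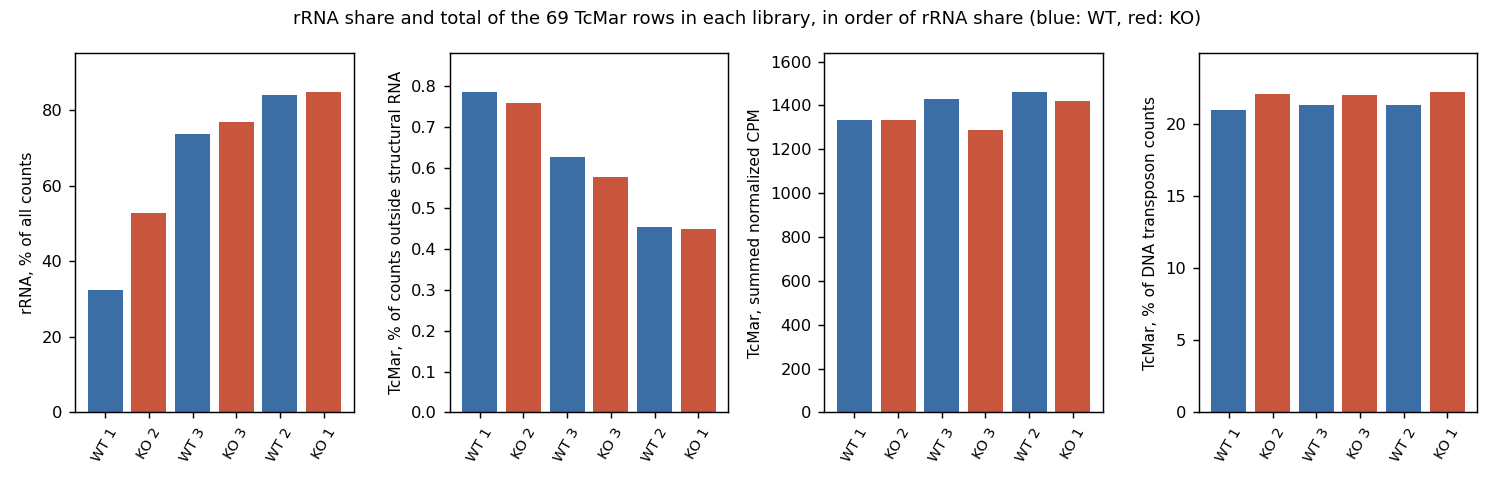
Bars give, for each library in order of rRNA share (WT blue, KO red), the rRNA percentage, the TcMar percentage of counts outside structural RNA, the summed TcMar level in normalized CPM and the TcMar percentage of DNA transposon counts. The second panel falls steadily from 0.786% to 0.450% as rRNA rises, the third does not, and in the fourth the 3 KO bars are the highest.

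Within the DNA transposons the genotypes did not overlap. TcMar members made up 21.0%, 21.3% and 21.3% of the counts of all DNA transposon rows in the WT libraries and 22.2%, 22.1% and 22.0% in the KO libraries. The summed level of the members was not higher in KO, with means of 1408 ± 67.1 and 1348 ± 68.6 normalized CPM for WT and KO. The denominator was lower in KO, at 6639 ± 254 in WT and 6096 ± 276 in KO, and 1 row outside the TcMar group made up much of that difference. FordPrefect, an element of the hAT-Tip100 family, fell from 712 ± 67.8 to 430 ± 65.9 normalized CPM, with an adjusted p of 0.0132 in edgeR. With FordPrefect left out of the denominator the TcMar share was 23.7% ± 0.397 in WT and 23.8% ± 0.311 in KO, a comparison chosen after its values were seen.

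KO was compared with WT by edgeR's quasi-likelihood test, with p-values adjusted by Benjamini-Hochberg over all 1193 tested rows. Of the 65 tested members 1 rose, Tigger12c, and 1 fell, X12_DNA, both of the TcMar-Tigger family. That is 3.08% of the members, where 5.78% of all tested rows passed. At an unadjusted p below 0.05, 5 members were higher (7.69%, against 9.56% of all rows) and 9 were lower (13.8%, against 11.3%). The 3 KO libraries lay above the 3 WT libraries in 6 members (9.23%, against 12.4%) and below them in 10 (15.4%, against 13.4%). On each of these counts the members' share was near the share of all rows or under it.

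Tigger12c, a subfamily of the Tigger group, had the largest fitted rise of the 65 members. It stood at 5.10, 6.11 and 6.47 normalized CPM in the WT libraries and at 11.03, 9.93 and 9.71 in the KO libraries. Every KO library was thus above every WT library, and the fitted KO level was 1.75 times the WT level (95% interval 1.41 to 2.18). On 47 to 200 counts per library, edgeR gave log2 0.81 ± 0.14 (SE) and an adjusted p of 0.0138. The direction was the same under all alternatives tried, but the call was narrowly lost when WT replicate 1, KO replicate 2 or the third KO library was left out (edgeR adjusted p = 0.0508, 0.0570 and 0.0501). It was also lost with both libraries lowest in rRNA left out (log2 fold change 0.71, edgeR adjusted p = 0.146) and when libraries were scaled by total counts (0.50).

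The 2 tested rows closest to Tigger12c by name did not pass the test. Tigger12A was at 7.24 ± 0.790 normalized CPM in WT and 6.71 ± 0.564 in KO, with overlapping libraries and a log2 fold change of -0.12. Tigger12 itself, on 23 to 40 counts per library, averaged 2.04 ± 0.952 for WT and 2.14 ± 0.614 for KO, and the 95% interval of its ratio began at 0.630 and reached beyond the 1.75 of Tigger12c. The differences between these subfamilies were not tested.

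X12_DNA, the other called member, is a repeat that the annotation places in the Tigger family. It stood at 26.6, 25.6 and 28.0 normalized CPM in the WT libraries and at 21.9, 20.9 and 21.5 in the KO libraries. The groups did not overlap, and the replicates of each genotype lay close together. The KO level was 0.797 of the WT level (95% interval 0.721 to 0.882), or log2 -0.33 ± 0.06 (SE), with an adjusted p of 0.0206 in edgeR. The direction was the same under all alternatives, but the call was lost when replicate 1 or 3 of WT or replicate 2 or 3 of KO was left out (edgeR adjusted p = 0.0643 to 0.118), with DESeq2 (adjusted p = 0.0761) and with DNA transposon rows alone in the fit (edgeR adjusted p = 0.0728). It was also lost with total-count scaling (log2 fold change -0.71) and with both libraries lowest in rRNA left out (-0.30, edgeR adjusted p = 0.249).

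**Figure D2:**
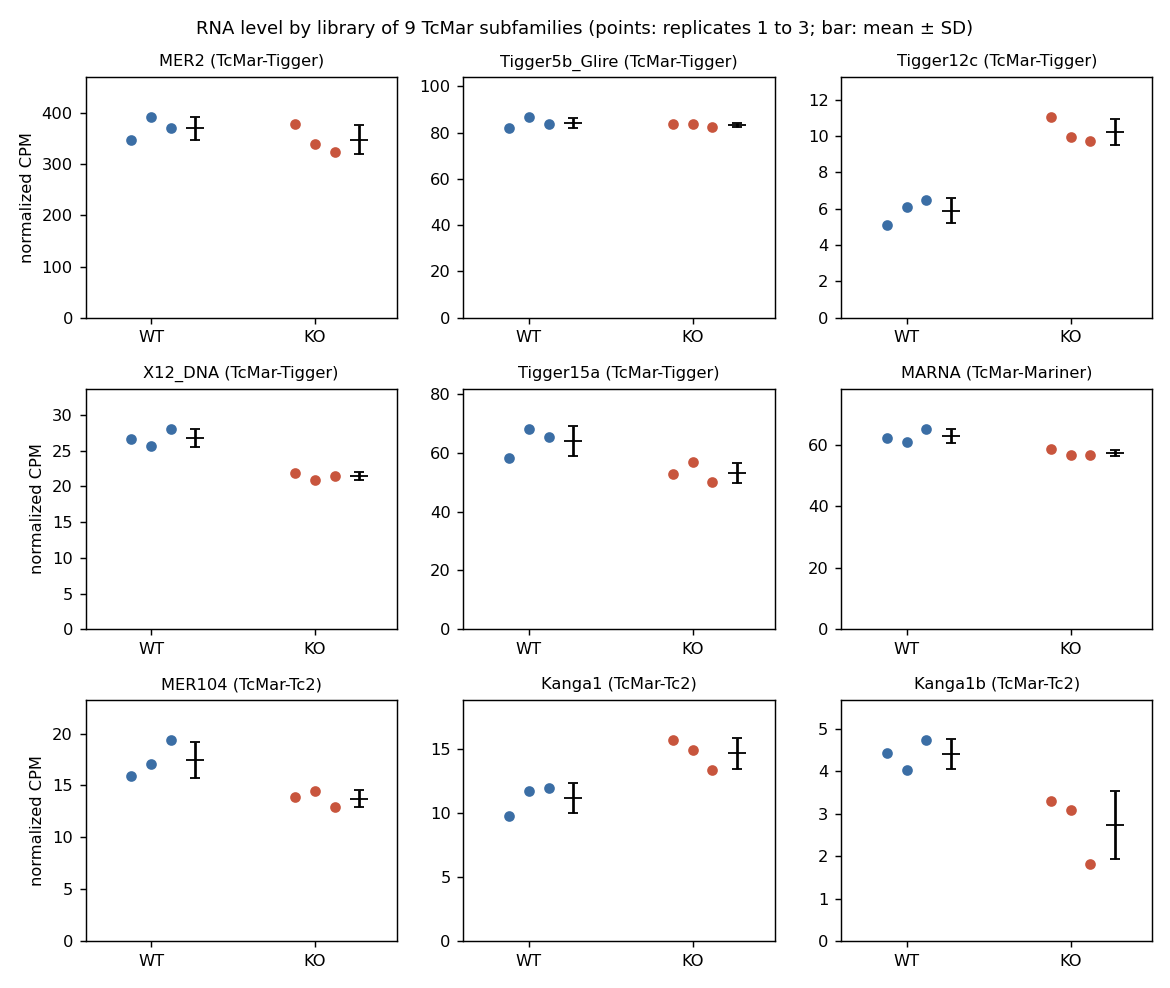
Each panel gives the normalized CPM of 1 subfamily in the 3 WT (blue) and 3 KO (red) libraries, with replicates 1 to 3 from left to right and the mean ± SD beside them, on axes that start at 0. Tigger12c is higher in all 3 KO libraries, X12_DNA is lower in all 3, and MER2 and Tigger5b_Glire overlap between genotypes.

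The Tigger family, 48 of the 69 members, received 83.3% of the members' counts. MER2, a short non-autonomous element of the Tigger group, alone held 26.0%. It stood at 347, 391 and 370 normalized CPM in the WT libraries and at 379, 340 and 323 in the KO libraries, which overlapped. Its KO level was 0.940 of the WT level (95% interval 0.829 to 1.07, edgeR adjusted p = 0.576).

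Of the 7 other Tigger rows of highest level 4 had ratios close to 1. Tigger5b_Glire, named for Glires, the clade of rodents and rabbits, was at 84.2 ± 2.27 normalized CPM in WT and 83.2 ± 0.841 in KO. Its ratio of 0.989 (95% interval 0.928 to 1.05, edgeR adjusted p = 0.959) was among the most precise of the members. MER46C, another short Tigger-related repeat, was at 41.6 ± 2.39 and 40.7 ± 1.04, with a ratio of 0.977 (0.895 to 1.07). Tigger17a was at 58.6 ± 3.46 and 56.1 ± 3.88, and Tigger16b at 48.4 ± 3.64 and 48.0 ± 5.11. None of these passed, and their libraries overlapped.

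The 3 remaining Tigger rows of high count had larger fitted differences, and none passed. Tigger15a was at 58.4, 68.1 and 65.5 normalized CPM in the WT libraries and at 52.8, 56.8 and 49.9 in the KO libraries. Every KO library was below every WT library, and the difference was log2 -0.26 ± 0.07 (SE), with an adjusted p of 0.0807 in edgeR. It passed without WT replicate 1, at log2 -0.33 (edgeR adjusted p = 0.0463). Tigger10 averaged 53.6 ± 5.66 for WT and 60.5 ± 8.85 for KO, and MARE10 at 52.7 ± 2.36 and 46.2 ± 8.34. In both the libraries overlapped, and the KO spread was wider than the WT spread.

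Further Tigger rows were picked for the lowest unadjusted p on each side of 0, so that both directions appear was set by the rule. Tigger9a was at 8.66 ± 1.29 normalized CPM in WT and 11.1 ± 1.02 in KO, X10b_DNA at 11.2 ± 0.294 and 13.3 ± 0.483, and Tigger8 at 3.15 ± 0.690 and 4.74 ± 0.816. In these 3 rows the KO libraries were all above the WT libraries, with edgeR adjusted p-values of 0.152, 0.152 and 0.158. Tigger17d, with overlapping libraries, was at 3.29 ± 0.580 and 4.41 ± 0.672. On the lower side X6b_DNA averaged 14.9 ± 1.71 for WT and 12.4 ± 0.236 for KO, and X1_DNA at 4.91 ± 0.509 and 3.55 ± 0.552, both without overlap (edgeR adjusted p = 0.210 and 0.168). Tigger13a was at 21.4 ± 0.421 and 19.7 ± 1.34, with overlap.

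Over the 47 tested Tigger rows 21 had a fold change above 0 and 26 below (55.3%, against 47.7% of all tested rows). Their median log2 fold change was -0.02. The 32 rows whose own name starts with Tigger, the 8 named X with a number and the 7 with other names had medians of -0.02, -0.10 and 0.12. All tested rows had a median of 0.01. With DNA transposon rows alone in the fit the Tigger median was 0.04, on the other side of 0.

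**Figure D3:**
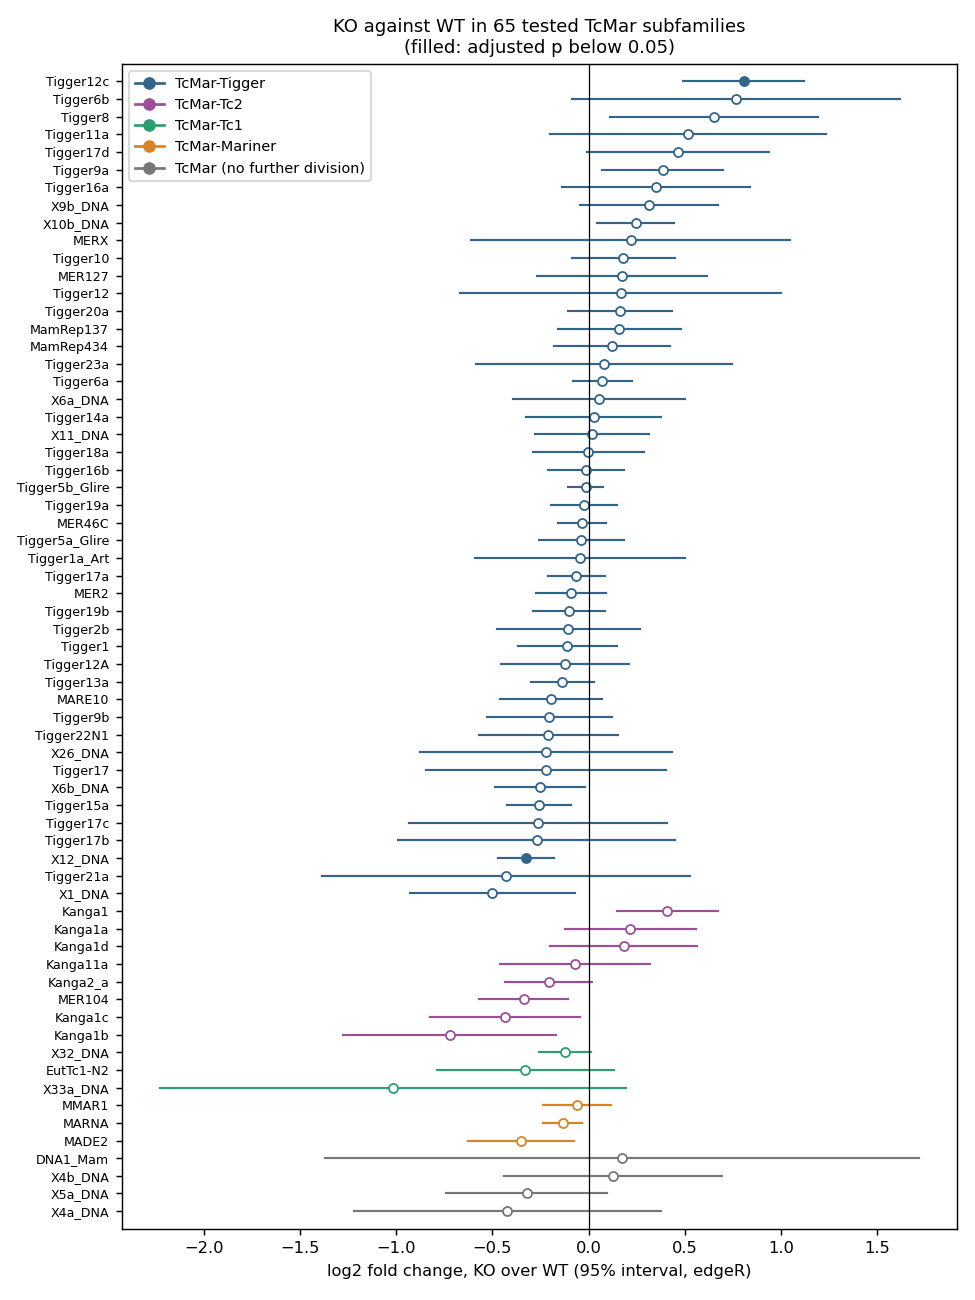
Each circle is the log2 fold change of KO over WT of 1 of the 65 tested TcMar subfamilies with its 95% interval from edgeR, coloured by family, and filled where the adjusted p is below 0.05. Only Tigger12c and X12_DNA are filled, and the 3 Mariner and 3 Tc1 rows all lie left of 0.

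The Tc2-related rows, mostly of the Kanga elements, were divided. Kanga1 was at 9.79, 11.7 and 11.97 normalized CPM in the WT libraries and at 15.7, 14.9 and 13.4 in the KO libraries. The KO libraries were all higher, at a fitted 1.33 times the WT level (95% interval 1.11 to 1.59), but the row did not pass over all rows (edgeR adjusted p = 0.0806). It passed with DNA transposon rows alone in the fit, with log2 0.47 and an adjusted p of 0.0141 in edgeR. Kanga1b lay the other way, at 4.44, 4.03 and 4.73 in WT and 3.31, 3.08 and 1.82 in KO. Its difference of log2 -0.72 ± 0.24 (SE) rested on 27 to 107 counts and did not pass, with an adjusted p of 0.131 in edgeR.

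Kanga1c also had all KO libraries below all WT libraries, at 5.64 ± 0.537 normalized CPM in WT and 4.17 ± 0.446 in KO. Kanga1a and Kanga1d overlapped, with log2 fold changes of 0.22 and 0.18. The 5 Kanga1 rows thus ran from -0.72 to 0.41 on the log2 scale. Of 9 Tigger and Kanga name stems with at least 2 tested rows, 5 had rows on both sides of 0, Kanga1 among them. This is a count of signs and not of spread, and 47.7% of all tested rows were below 0. Some of these rows lay close to 0, such as Tigger16b at -0.012. The labels do not say how reads shared by similar subfamilies were counted, and the part of such sharing was not tested.

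The 2 remaining Tc2 rows of high count were lower in KO on average. MER104 was at 15.9, 17.0 and 19.3 normalized CPM in the WT libraries and at 13.8, 14.5 and 12.9 in the KO libraries. The groups did not overlap, and the KO level was 0.791 of the WT level (95% interval 0.674 to 0.929, edgeR adjusted p = 0.0953). Kanga2_a was at 37.3 ± 1.22 in WT and 32.7 ± 5.05 in KO. KO replicate 1, at 38.5, was above all WT libraries, and without it the row passed, with log2 -0.32 and an adjusted p of 0.0314 in edgeR. Kanga11a was at 3.87 ± 0.325 and 3.71 ± 0.0863.

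The Mariner rows all had ratios below 1, and none passed. MARNA, a non-autonomous mariner element, was at 62.3, 60.9 and 65.1 normalized CPM in the WT libraries and at 58.4, 56.7 and 56.7 in the KO libraries. Although the groups did not overlap, the difference was small, with a KO level of 0.911 of the WT level (95% interval 0.848 to 0.978, edgeR adjusted p = 0.129). MADE2, a short mariner-related repeat, was at 10.4 ± 0.609 in WT and 8.34 ± 0.953 in KO, also without overlap (edgeR adjusted p = 0.136). MMAR1 was at 24.7 ± 2.26 and 23.8 ± 0.579 and overlapped, and without WT replicate 3 its ratio was just above 1 (log2 0.011). Summed over the 3 rows, the Mariner level was 97.4, 93.2 and 103 normalized CPM for WT and 91.1, 89.0 and 88.2 for KO, with MARNA the main part, and the sums did not overlap.

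The 3 tested Tc1 rows also had ratios below 1. X32_DNA was at 32.0 ± 1.33 normalized CPM in WT and 29.2 ± 1.16 in KO, with every KO library below every WT library (edgeR adjusted p = 0.293). EutTc1-N2 was at 5.46 ± 0.942 and 4.36 ± 0.829, with overlap. X33a_DNA had the lowest ratio of all tested members, 0.494, but on 2 to 41 counts per library its 95% interval ran from 0.213 to 1.14 (edgeR adjusted p = 0.323). Its log2 fold change of -1.02 was -1.71 without KO replicate 2 and -0.76 without WT replicate 1, and did not pass in either case. The sum over the 4 Tc1 rows, mostly X32_DNA, was 39.3 ± 1.46 normalized CPM for WT and 34.6 ± 1.14 for KO. These sums also did not overlap between genotypes, and no test was made of them.

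In the rows of TcMar with no further division X5a_DNA was at 8.68 ± 1.02 normalized CPM in WT and 7.23 ± 1.67 in KO. X4a_DNA was at 1.59 ± 0.552 and 1.15 ± 0.359, X4b_DNA at 2.06 ± 0.431 and 2.40 ± 0.356, and DNA1_Mam at 0.587 ± 0.393 and 0.516 ± 0.500. All 4 overlapped between genotypes. Over the 18 tested members outside the Tigger family 13 had fold changes below 0 (72.2%, against 47.7% of all tested rows). Their median was -0.17. In 6 of the 18 every KO library was below every WT library (33.3%, against 13.4%), and in 1 above (5.56%, against 12.4%). At an unadjusted edgeR p below 0.05, 5 were lower (27.8%, against 11.3%) and 1 was higher (5.56%, against 9.56%). The difference of this subset from all rows was not tested. Medians by family were -0.14 for Tc2, -0.33 for Tc1, -0.13 for Mariner and -0.10 for the undivided rows. Those of Tc2, Tc1 and Mariner lay between -0.08 and -0.33 in the 4 scalings and row sets compared other than total-count scaling, which put the median of all rows at -0.36.

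The 4 members with too few counts for the test were MER132 of TcMar-Pogo with 0 to 3 counts per library, EutTc1-N1 with 1 to 10, Tigger6 with 4 to 16, and X22_DNA, the row with the uncertain family name, with 1 count in WT replicate 3 alone. With no filter on low counts all 69 members entered the fit, and only Tigger12c and X12_DNA were called. At so few counts this does not show that these 4 rows were unchanged.

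**Figure D4:**
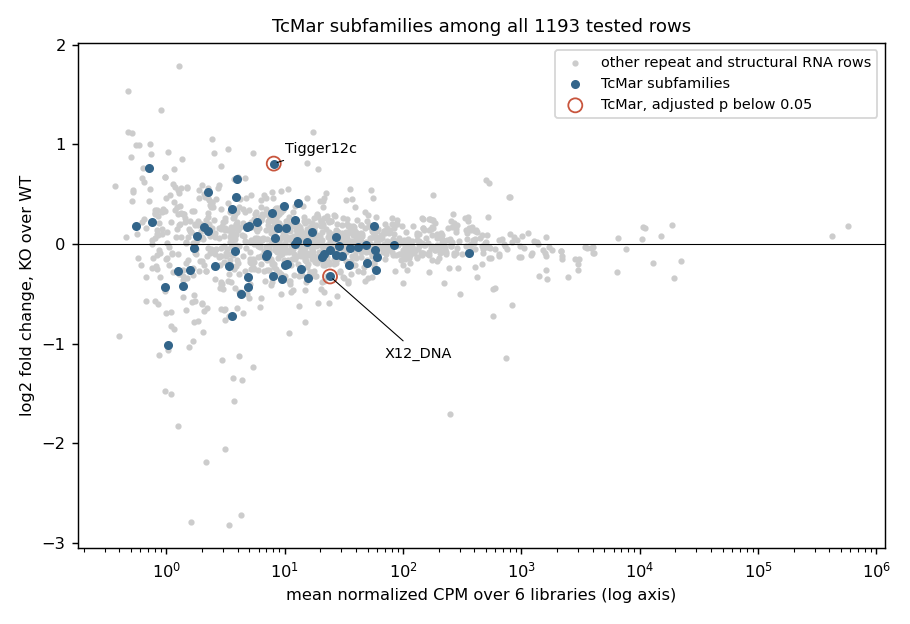
The log2 fold change of KO over WT is plotted against the mean normalized CPM of the 6 libraries on a log axis for all 1193 tested rows (grey) and the 65 TcMar subfamilies (blue), with the 2 called members circled. The members lie within the cloud of other rows, and their spread widens at low levels as it does for all rows.

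The precision of these comparisons depended on depth. The median tested member had 70 counts in WT replicate 2, the shallowest library outside rRNA, and 212 in WT replicate 1. The 95% interval of the KO to WT ratio lay within a 1.5-fold change either way in 36 of 65 members (55.4%), against 60.9% of all tested rows. All 36 had a mean of at least 50 counts, a level that 51 members reached. In the other 29 members the interval included changes of 1.5-fold or more. The fitted change itself was 1.5-fold or more in 5 members, namely Tigger12c, Tigger6b, Tigger8, Kanga1b and X33a_DNA, and at least 2-fold in X33a_DNA alone, which was under 2-fold when replicate 1 or 2 of WT or replicate 1 or 3 of KO was left out (log2 -0.76, -0.84, -0.80 and -0.87).

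The hAT elements are the other large group of cut-and-paste transposons. Among 76 tested hAT-Charlie rows 1 rose and 3 fell. That is 5.26%, where 3.08% of the TcMar members and 5.78% of all tested rows passed. The hAT-Charlie median was log2 -0.04, and that of the 65 TcMar members was also -0.04. Of the hAT-Charlie rows 64.5% had fold changes below 0, against 47.7% of all tested rows. Every KO library was below every WT library in 19.7% of them (against 13.4%) and above in 5.26% (against 12.4%). At an unadjusted edgeR p below 0.05, 18.4% were lower (against 11.3%) and 2.63% higher (against 9.56%). Among 41 tested hAT-Tip100 rows 1 rose and 1 fell (4.88%), their median was 0.07, and 36.6% were below 0. Differences between these families were not tested.

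Whether the members followed the rRNA content of the library was examined in a fit with genotype and rRNA level together. In that fit none of the 65 members had a slope on the rRNA level that passed in edgeR, where 1.68% of all tested rows did. At an unadjusted p below 0.05 there was 1 such member of 65, where 7.04% of all tested rows had one. This was Tigger1, a Tigger element whose full-length form encodes a transposase. It stood at 25.4, 28.7 and 29.1 normalized CPM in the WT libraries and at 30.5, 22.7 and 24.6 in the KO libraries, lowest in KO replicate 2 and highest in KO replicate 1. The slope was above 0 in 49 members (75.4%), against 50.1% of all rows. It was also above 0 in 67.1% of the tested hAT-Charlie rows, but in 39% of the hAT-Tip100 rows. Over all DNA transposon rows outside the members the share was 56.8%, and these differences were not tested. With the rRNA level in the fit Tigger12c and X12_DNA were again the members called for genotype.

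**Figure D5:**
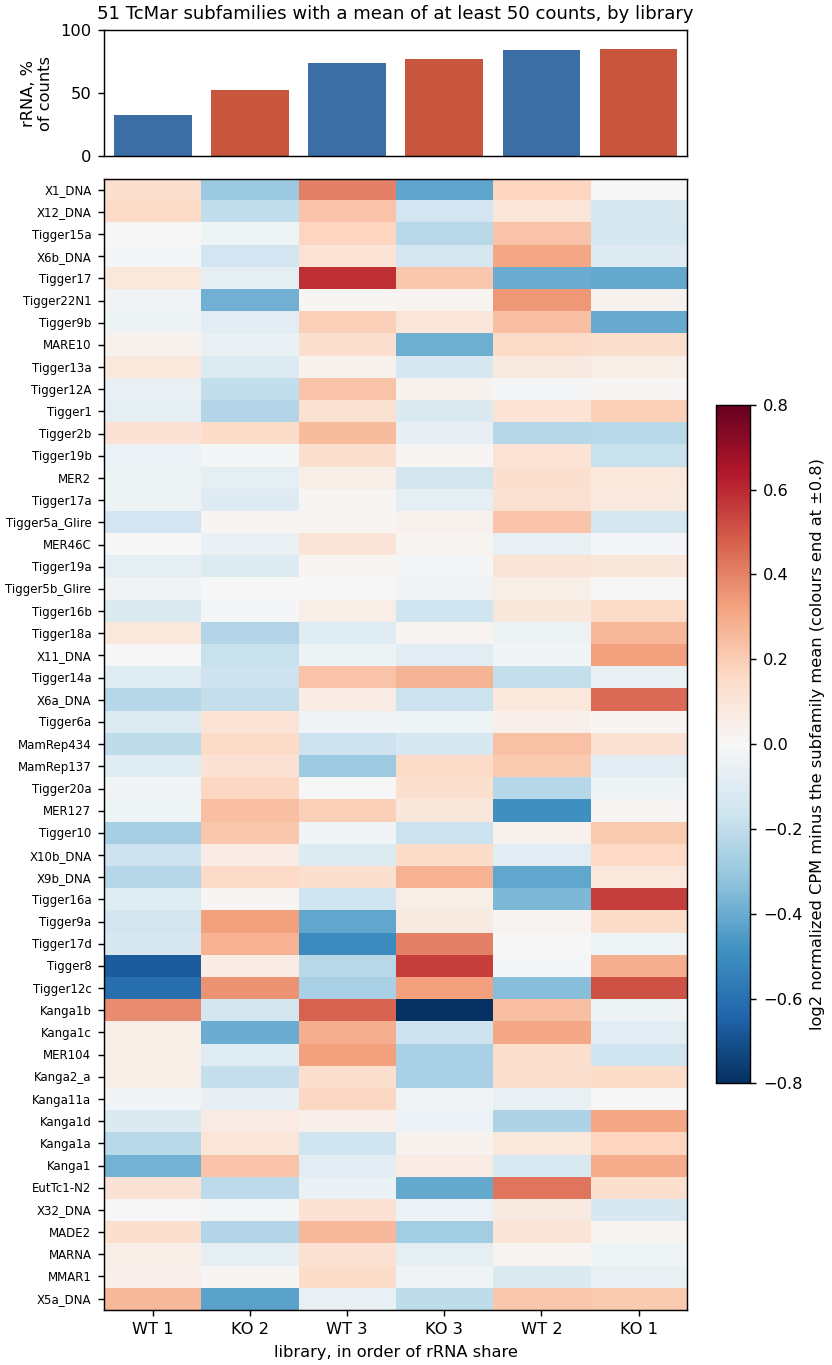
Rows are the 51 TcMar subfamilies with a mean of at least 50 counts, grouped by family, and columns the 6 libraries in order of rRNA share, which the bars above give (WT blue, KO red). Colour is the log2 normalized CPM minus the mean of the subfamily, from blue (low) to red (high), and Tigger12c and Kanga1 are blue in the 3 WT columns while X12_DNA is red there.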

How the data were processed

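RNA-seq libraries were made from total RNA with a TruSeq Ribo-Zero kit, per the labels' protocols. FastQC 0.11.5, Trimmomatic and Bowtie2 and the builds mm10 and GRCm38 are named in the submitters' processing notes. For the counting tool, the repeat annotation, strand and reads with several matches, the labels used here give nothing. The values deposited by the authors are estimated counts per repeat row, not normalized, and all are whole numbers.

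All rows entered 1 fit in R 4.3.3 with edgeR 4.0.16: filterByExpr kept 1193 rows and removed 143, TMM set effective library sizes, and the quasi-likelihood test compared KO with WT, with Benjamini-Hochberg adjustment at 0.05. Standard errors and 95% intervals came from the F statistic. Members were then picked by class and family. Library totals and rRNA shares are given with the results. The procedure was tested on simulated data.

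The members, lists and rules were chosen with earlier results of these data known. Named were the called members, the 8 Tigger rows of highest level, the 5 Tigger rows of lowest p each way with a mean of at least 20 counts, the largest rise and fall, the 3 highest rows and the row of lowest p in each other family and rows called under any alternative, 29 in all. Others were named for their relation to these, or after their values were seen. Alternatives covered scaling, count filters, rows in the fit, a replicate block, an rRNA covariate, left-out libraries, DESeq2 1.42.0, limma-voom (limma 3.58.1) and a minimum change of 1.5-fold. The DNA transposon share without FordPrefect was added after seeing the data. No repeat sequence, copy position or row length was used here.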

Additional observations from a re-analysis of the deposited data

How the results depend on the processing

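Of the 65 tested members 2 were called. The count was 0 with total-count scaling, with a minimum change of 1.5-fold, with both libraries lowest in rRNA left out (WT replicate 1 and KO replicate 2) and with the replicate number as a block, 1 with DESeq2, and 0 to 3 when 1 library was left out: it was 0 with KO replicate 2 or 3 missing, 1 with WT replicate 1 or 3 missing and 3 with KO replicate 1 missing. The counts at an unadjusted p below 0.05 were 0 with total-count scaling, 8 with the replicate block, 5 without the libraries lowest in rRNA, 1 with the minimum change, 9 with DESeq2, 9 with WT replicate 3, KO replicate 2 or KO replicate 3 missing and 18 with KO replicate 1 missing, against 14 as reported. With the replicate block Tigger12c was at log2 0.80 (edgeR adjusted p = 0.0784) and X12_DNA at -0.32 (edgeR adjusted p = 0.101). Over all rows 69 were called as reported, 0 with total-count scaling, 24 with the block, 41 without structural RNA, 9 without the libraries lowest in rRNA, 5 with the minimum change and 22 to 69 without 1 library. The numbers of the libraries share no stated source, and same-numbered libraries did not deviate together (correlations over rows of -0.44, -0.39 and 0.02), so they were not used to pair samples. The median log2 fold change of the members, -0.04 as reported, was -0.43 with total-count scaling, which moved the median of all rows from 0.01 to -0.36. It was -0.0018 with DNA transposon rows alone in the fit and -0.10 to -0.013 without 1 library. The difference in TcMar share, -0.03 percentage points of the counts outside structural RNA, was 0.91 points of the DNA transposon counts and -0.112 to 0.0536 points without 1 library. Some uncalled rows changed sign. With total-count scaling, whose shift of all rows is given above, the log2 fold changes of Tigger10, X10b_DNA and X4b_DNA were -0.062, -0.13 and -0.43. With DNA transposon rows alone those of MER46C, Tigger16b and Tigger5b_Glire were 0.026, 0.050 and 0.049. Without 1 library the ranges were -0.065 to 0.024 for MER46C, -0.11 to 0.011 for MMAR1, -0.087 to 0.057 for Tigger16b and -0.034 to 0.00056 for Tigger5b_Glire. The cause of the changes seen without total-count scaling was not tested. Rows with a mean under 50 counts were too shallow to limit their change to under 1.5-fold.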

Other observations

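Replicates of a genotype differed in the TcMar rows by more than counting noise. The chi-square over degrees of freedom between 2 libraries of a genotype, taken over the tested members, was 1.39 to 1.83 for the WT pairs and 2.11 to 2.44 for the KO pairs, where 1 is counting noise alone. The DNA transposon rows outside the group gave 2.06 to 2.87. Transposable element rows outside the members gave 171 to 1280. They include rows of high count such as L1MdA_VI, which ran from 244 to 1551 normalized CPM in the WT libraries. The ratio grows with the counts per row, so it does not compare reproducibility between lists of unlike depth. Nor does it show whether the cultures were separate. The libraries also differed in how often they were extreme on the normalized CPM scale. WT replicate 2, the shallowest outside rRNA, was the highest library in 21 of 65 tested members and the lowest in 11. WT replicate 1 was the highest in 3 and the lowest in 13. The same count over all tested rows was not made.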
